A study of Mus musculus with 16 samples.

Results

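Ferritin, iron transport and metallothionein genes were followed in whole mouse brain. The set was a list of 10 genes found by symbol among the 49671 genes of the count files: the ferritin chains Ftl1 and Fth1, the ferroxidases Heph and Cp, the importers Tfrc and Slc11a2, the exporter Slc40a1 and the metallothioneins Mt1, Mt2 and Mt3. The list was chosen by an earlier account of the same data, which had named 3 of them. It named Heph for LPS-LPS against saline-LPS, Ftl1 for LPS-LPS against LPS-saline and for the averaged pubertal comparison, and Mt3 for the averaged pubertal comparison. Those values, and the other comparisons built directly from them, are given as descriptions with no test.

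All mice were C57BL/6. Dams were injected intraperitoneally with lipopolysaccharide (LPS), a bacterial cell-wall component that triggers innate immune signalling, or with saline on gestation day 16. Male offspring (as labelled) received LPS or saline on postnatal day 30, and the whole brain was taken on postnatal day 32. The groups, each of 4 mice with 1 library per mouse, were LPS-LPS (LPS to dam and offspring), LPS-saline (LPS to the dam, saline to the offspring), saline-LPS (saline to the dam, LPS to the offspring) and saline-saline. Reading the dam's injection first follows the order of the treatments and is not spelled out in the labels. If the order were the reverse, the prenatal and pubertal comparisons would change places. Litters are not given, so mice of a group may share a dam, and the p-values measure only the spread between these mice.

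Cells take up iron as transferrin bound to the transferrin receptor, move it across membranes with the divalent metal transporter, store it in ferritin cages made of heavy and light chains, and release it through ferroportin with the help of a copper-containing ferroxidase. Iron regulatory proteins bind a hairpin, the iron-responsive element, in several of these messages: in a 5′ untranslated region they block translation, and in the 3′ untranslated region of the transferrin receptor message they protect it from decay. Metallothioneins are small cysteine-rich proteins that bind zinc and copper. In brain, ferritin and hephaestin are known from oligodendrocytes, among other cells. Mt1 and Mt2 are known from astrocytes and rise with inflammation and glucocorticoids in many tissues, while Mt3 is the form best known from the nervous system.

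Hairpins of the iron-responsive type are shown for the members whose main transcript holds one, because they mark the messages whose protein output, which RNA sequencing does not measure, is set in part by iron. The search required CNNNNNCAGTGN followed by 5 bases that pair with the 5 bases before the loop, in transcripts of the GRCm38 build read on the sense strand. Capitals mark the CAGTG of the loop, and each sequence is 29 bases long.
Ftl1, 5′ untranslated region, chr7:45459785-45459801, minus strand: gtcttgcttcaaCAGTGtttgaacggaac
Fth1, 5′ untranslated region, chr19:9982738-9982754, plus strand: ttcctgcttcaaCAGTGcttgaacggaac
Slc40a1, 5′ untranslated region, chr1:45925471-45925487, minus strand: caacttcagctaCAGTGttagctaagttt
Tfrc, 3′ untranslated region, chr16:32631225-32631241, plus strand: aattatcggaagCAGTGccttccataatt
Tfrc, 3′ untranslated region, chr16:32631604-32631620, plus strand: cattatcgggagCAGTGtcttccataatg
Tfrc, 3′ untranslated region, chr16:32631669-32631685, plus strand: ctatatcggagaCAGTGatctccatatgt
Tfrc, 3′ untranslated region, chr16:32631716-32631732, plus strand: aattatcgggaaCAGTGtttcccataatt
The coordinates span the 17 bases of the searched pattern. A match was found in 294 of 21901 genes with a protein-coding transcript, or 1.342%. Heph, Cp, Slc11a2 and the metallothioneins held no match to this strict pattern, which says only that these letters were not in these transcripts.

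The libraries held 25729919 to 38571036 gene counts. Every library but one had at least 1140 counts of the Y-linked gene Ddx3y. LPS-LPS replicate 3 had 0, and it had 503 CPM (library-scaled counts) of Xist, which is transcribed from the inactive X chromosome, against the labelled male sex. LPS-LPS replicate 1 had 503 CPM of Gh, the pituitary growth hormone. Gabra6, which marks granule cells of the cerebellum, was below 1 CPM in 8 libraries: 1 of LPS-LPS, 2 of LPS-saline, 2 of saline-LPS and 3 of saline-saline. Markers of neurons, oligodendrocytes, astrocytes and microglia were all present. This does not show that the samples held the same parts of the brain, since summed cerebellar granule cell markers ranged from 1.09 to 270 CPM.

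Per kilobase of main transcript, the members spanned a wide range of levels. Fth1, the heavy chain that carries the ferroxidase site of ferritin, was highest at 1116 ± 116 CPM per kilobase (SD, n = 16 libraries). Mt3 followed at 628 ± 96.2 and Mt1 at 361 ± 38.1. Tfrc, Ftl1 and Slc11a2 lay close together at 24.3 ± 2.10, 21.5 ± 5.20 and 20.0 ± 1.24 CPM per kilobase, and their ranges over libraries overlapped. Cp, Slc40a1 and Heph were lower, at 3.55 ± 0.295, 2.57 ± 0.480 and 1.40 ± 0.246. Mt2 was lowest, at 0.105 ± 0.0999.

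The levels of Ftl1 and Mt2 could not be read as the levels of those messages. Ftl1 has near-identical copies in the genome, and reads that align equally well in several places were counted apart from genes (3.18 to 3.90% of all counts in these libraries). Of its 919 windows of 50 bases, 725 (78.89%) also occur in transcripts of other genes, and 47.93% of the bases lie under exons of other genes. Its 968-base transcript matched that of Ftl1-ps1, a copy on chromosome 13 (chr13:74399694-74407346, plus strand), in 906 of 910 aligned bases. A coding stretch that holds 2 of the 4 differing bases, in capitals, shows how little separates them.
Ftl1, transcript bases 698 to 757: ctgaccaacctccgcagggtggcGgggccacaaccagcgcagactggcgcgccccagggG
Ftl1-ps1, transcript bases 640 to 699: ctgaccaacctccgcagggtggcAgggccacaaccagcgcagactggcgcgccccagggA
Over all libraries 10615 counts went to Ftl1 and 254 to Ftl1-ps1. Fth1 shared 6.591% of its 50-base windows with another gene, Slc11a2 0.504%, and the other members none. The count of Ftl1 is therefore that of the reads which could be placed.

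Mt2 had 0 to 5 counts per library, 26 in all, and was the 1 member that did not pass the filter on low counts. In the 5 libraries at 0, the 3-count limit, which covers counting error only, allows a level of up to 0.0778 to 0.0939 CPM. Of its 511-base transcript, 69.47% lies under exons of Gm45774, an antisense gene with 96 counts, and the strand setting of the counting is not given in the sources used here, so its counts do not show how much Mt2 RNA was there. Counts were 0, 4, 5 and 1 in LPS-LPS, 2, 0, 2 and 3 in LPS-saline, 0, 2, 2 and 3 in saline-LPS, and 0, 0, 1 and 1 in saline-saline.

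**Figure D1:**
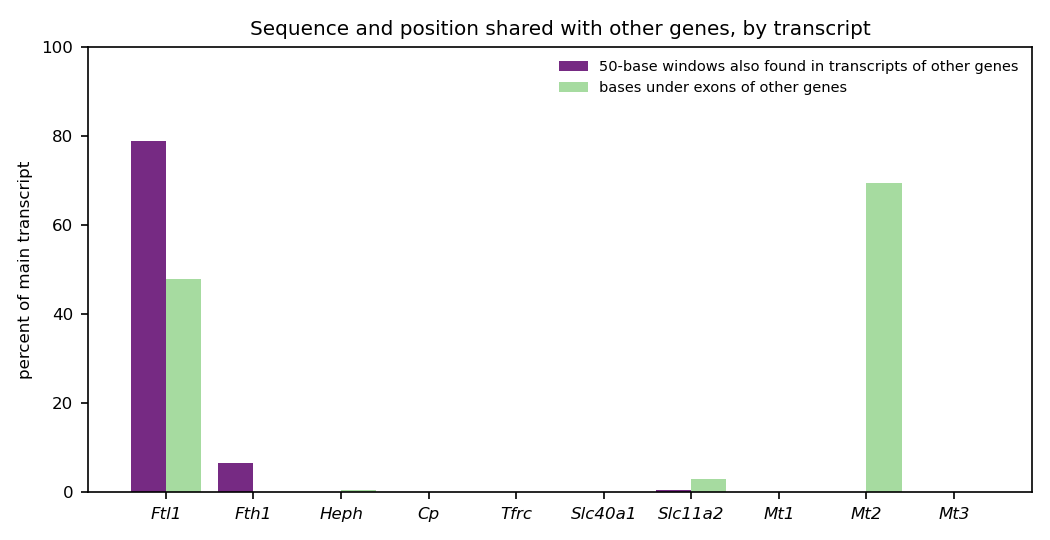
Percent of each gene's main transcript (y axis) that is shared with other genes, for the 10 genes (x axis): purple bars give the 50-base windows also found in transcripts of other genes, green bars the bases under exons of other genes. Ftl1 stands at 78.89% and 47.93% and Mt2 at 0% and 69.47%, while the other 8 genes lie under 7% on both measures.

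Ftl1, the ferritin light chain, which helps the iron core to form, was the member that stood furthest apart in LPS-LPS brains. It had 28.9, 25.9, 31.4 and 27.7 CPM in LPS-LPS, 19.4, 18.3, 19.4 and 20.6 CPM in the LPS-saline group, 14.97, 17.5, 19.3 and 21.4 CPM in saline-LPS, and 19.6, 15.5, 15.03 and 17.9 CPM in saline-saline. Each LPS-LPS library lay above all 12 others, and the ranges of the other groups overlapped each other. Between LPS-LPS and saline-LPS the log2 fold change was 0.64 ± 0.10 (SE; adjusted p = 0.00522 over 18875 genes by edgeR's quasi-likelihood test, adjusted after Benjamini and Hochberg), a level 55.5% higher. That comparison uses the LPS-LPS libraries for which Ftl1 was named, so it is not independent of that choice. Against saline-saline, a comparison that contains the difference that named Ftl1, the value was 0.74 ± 0.10. LPS-saline against saline-saline gave 0.19 ± 0.10 (adjusted p = 0.443, edgeR). It uses no LPS-LPS library, but both of its groups entered comparisons that named Ftl1, so it is not independent of that choice either.

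For the comparisons that named Ftl1, the values were 0.55 ± 0.10 in LPS-LPS against LPS-saline and 0.33 ± 0.07 in the averaged pubertal comparison, and saline-LPS against saline-saline, which enters that average, gave 0.11 ± 0.10. Averaged over the pubertal injection, prenatal LPS gave 0.41 ± 0.07 (adjusted p = 0.00251, edgeR), from 23.9 ± 5.12 CPM in the 8 mice of LPS-injected dams and 17.7 ± 2.38 CPM in the 8 of saline-injected dams (SD). Individual libraries of those sets overlapped. The 8 mice of LPS-injected dams include the LPS-LPS mice for which Ftl1 was named, so this comparison is not independent of that choice.

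Fth1, the heavy chain, had 1078, 1083, 1245 and 1098 CPM in LPS-LPS, 1149, 1000.2, 1083 and 1055 CPM in the LPS-saline group, 884, 979.8, 1076 and 1104 CPM in saline-LPS, and 1049, 794, 991 and 919 CPM in saline-saline. LPS-LPS lay above saline-saline in every library and overlapped the other groups. No comparison of Fth1 passed the threshold in this fit. The log2 fold change was 0.26 ± 0.08 in LPS-LPS against saline-saline (adjusted p = 0.0568, edgeR), 0.16 ± 0.08 in LPS-LPS against saline-LPS (adjusted p = 0.404), 0.19 ± 0.08 in LPS-saline against saline-saline (adjusted p = 0.305) and 0.17 ± 0.06 in the averaged prenatal comparison (adjusted p = 0.0663). These are edgeR values of the same fit as above, and several lie close to the threshold. With the replicate block Fth1 passed in LPS-LPS against saline-saline (0.27, adjusted p = 0.0171, edgeR) and in the averaged prenatal comparison (0.18, adjusted p = 0.0227, edgeR). DESeq2 gave adjusted p of 0.0283 and 0.0437 in the same comparisons. With 1 library left out, it passed in LPS-LPS against saline-saline without saline-saline replicate 1 (adjusted p = 0.0359, edgeR) or saline-LPS replicate 1 (adjusted p = 0.0239), and in the averaged prenatal comparison without saline-saline replicate 1 (adjusted p = 0.0393) or saline-LPS replicate 4 (adjusted p = 0.0428). Only settings in which Fth1 passed are listed here. Its level followed the length trend described below at r = -0.87, and its values corrected for GC content and exonic length are not reported here.

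Set against the heavy chain in the same library, Ftl1 counts made up 2.68, 2.39, 2.52 and 2.52% of Fth1 counts in LPS-LPS. The other libraries lay between 1.69 and 1.95% in LPS-saline, between 1.69 and 1.94% in saline-LPS and between 1.52 and 1.95% in saline-saline. The LPS-LPS range again lay above all others. This ratio uses Ftl1 values already described and carries no test. Its size reflects the share of Ftl1 reads that could be placed and does not give the light-to-heavy ratio of the messages.

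**Figure D2:**
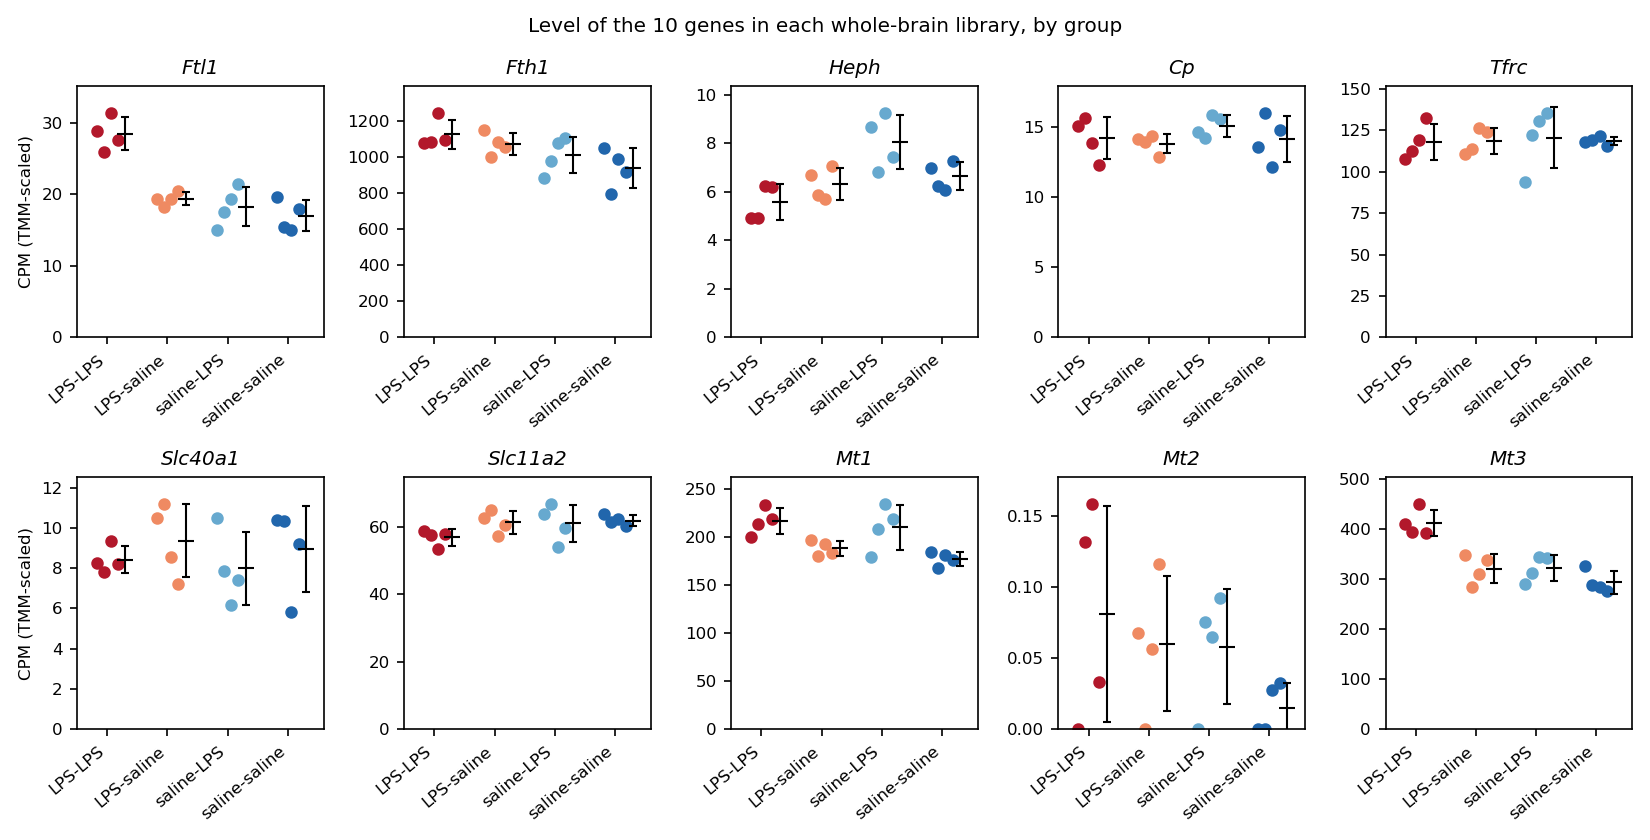
Level of each of the 10 genes in CPM on a linear axis from 0 (y) by group (x), with 1 point per library and the mean ± SD of 4 libraries beside it. LPS-LPS libraries of Ftl1 (25.9 to 31.4 CPM) and Mt3 (392 to 449 CPM) lie above all other libraries, the mean of Heph is lowest in LPS-LPS and highest in saline-LPS, and Cp, Tfrc and Slc40a1 overlap between all groups.

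Among the metallothioneins, Mt3 resembled Ftl1. It had 410.4, 393, 449 and 392 CPM in LPS-LPS, 349, 284, 310.2 and 337 CPM in the LPS-saline group, 289.5, 312, 344 and 342 CPM in saline-LPS, and 326, 288, 283 and 276 CPM in saline-saline. All LPS-LPS libraries lay above all 12 others. The log2 fold change was 0.35 ± 0.07 in LPS-LPS against saline-LPS (adjusted p = 0.0317, edgeR), 27.7% higher. That call was lost without saline-LPS replicate 1 or 2 or LPS-LPS replicate 1, 3 or 4, with adjusted p of 0.0800, 0.0633, 0.0931, 0.149 and 0.0603 by edgeR in that order. In LPS-saline against saline-saline it was 0.13 ± 0.07 (adjusted p = 0.498, edgeR). The averaged prenatal comparison gave 0.24 ± 0.05 (adjusted p = 0.00917, edgeR), with 365 ± 55.1 CPM after prenatal LPS and 308 ± 27.3 CPM after prenatal saline (SD, 8 libraries each). LPS-LPS against saline-saline, which contains the pubertal difference for which Mt3 was named, gave 0.49 ± 0.07. LPS-LPS against saline-LPS, LPS-saline against saline-saline and the averaged prenatal comparison use libraries that entered the pubertal difference. They are therefore not independent of the choice of Mt3. The calls in LPS-LPS against saline-LPS and in the averaged prenatal comparison were both lost with the GC and length correction given below. The value that named it, in the averaged pubertal comparison, was 0.25 ± 0.05, with 0.36 ± 0.07 in LPS-LPS against LPS-saline and 0.13 ± 0.07 in saline-LPS against saline-saline.

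Mt1 had its higher means in the groups given LPS at puberty, a difference that did not pass the threshold. It had 200.1, 214, 233 and 219 CPM in LPS-LPS, 197, 179.8, 192 and 183 CPM in the LPS-saline group, 179, 209, 234 and 219 CPM in saline-LPS, and 184, 167, 181 and 176 CPM in saline-saline. LPS-LPS lay above both groups given saline at puberty, and saline-LPS did so except for replicate 1. The averaged pubertal comparison gave a log2 fold change of 0.22 ± 0.05 (adjusted p = 0.618, edgeR), which was the 4th smallest p of the 18875 genes. Saline-LPS against saline-saline gave 0.25 ± 0.07 and LPS-LPS against LPS-saline 0.20 ± 0.07, with adjusted p of 1.00 and 0.945 by edgeR. The averaged prenatal comparison gave 0.06 ± 0.05 (adjusted p = 0.468, edgeR). Only LPS-LPS against saline-saline, in which both injections differ, passed, at 0.29 ± 0.07 (adjusted p = 0.0184, edgeR). That call was lost without LPS-LPS replicate 3, saline-saline replicate 2 or saline-saline replicate 4, at 0.25, 0.26 and 0.28 (adjusted p = 0.0798, 0.0686 and 0.0581, edgeR). Mt1 also followed the length trend described below at r = -0.69. Its value in that comparison with the GC and length correction is not reported here.

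Heph, hephaestin, a membrane ferroxidase that works with ferroportin, had its lowest mean in LPS-LPS and its highest in saline-LPS. It had 4.92, 4.94, 6.26 and 6.22 CPM in LPS-LPS, 6.68, 5.86, 5.73 and 7.07 CPM in the LPS-saline group, 8.66, 6.83, 9.26 and 7.45 CPM in saline-LPS, and 6.97, 6.24, 6.07 and 7.29 CPM in saline-saline, from 150 to 285 counts per library. LPS-LPS lay below saline-LPS in every library, and the other pairs of groups overlapped. The log2 fold change that named it was -0.53 ± 0.12 in LPS-LPS against saline-LPS, or 0.693 of the saline-LPS level. The averaged prenatal value was -0.30 ± 0.08 and the interaction -0.46 ± 0.17, both built from it. LPS-saline against saline-saline gave -0.07 ± 0.12 (adjusted p = 0.858, edgeR). The pubertal values were 0.28 ± 0.12 in saline-LPS against saline-saline and -0.18 ± 0.12 in LPS-LPS against LPS-saline, both with an adjusted p of 1.00 by edgeR.

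The remaining transport genes differed between no groups past the threshold. Cp, ceruloplasmin, the copper ferroxidase that astrocytes display on their surface, ranged over 12.3 to 15.6 CPM in LPS-LPS, 12.8 to 14.4 in LPS-saline, 14.2 to 15.8 in saline-LPS and 12.2 to 16.0 in saline-saline. Tfrc, the transferrin receptor, had 108 to 133 CPM in LPS-LPS, 110.5 to 126 in LPS-saline, 94.0 to 135 in saline-LPS and 116 to 122 in saline-saline. Slc40a1, ferroportin, had 7.80 to 9.36 CPM in LPS-LPS, 7.22 to 11.2 in LPS-saline, 6.17 to 10.5 in saline-LPS and 5.82 to 10.4 in saline-saline. Slc11a2, the divalent metal transporter, had 53.4 to 58.9 CPM in LPS-LPS, 57.3 to 65.2 in LPS-saline, 54.1 to 66.8 in saline-LPS and 60.2 to 63.9 in saline-saline.

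Only for Slc11a2 among these did any pair of groups not overlap: LPS-LPS lay below saline-saline, with a log2 fold change of -0.12 ± 0.06 (adjusted p = 0.272, edgeR). The share of all tested genes whose groups do not overlap was not computed. Lack of overlap, here and for the members above, is therefore a description only. The other 3 overlapped in every pair of groups. In LPS-LPS against saline-LPS the values were -0.08 ± 0.09 for Cp, -0.03 ± 0.09 for Tfrc, 0.07 ± 0.18 for Slc40a1 and -0.10 ± 0.06 for Slc11a2. The standard error of Slc40a1 was the widest of the 9 tested members, and its libraries had 187 to 431 counts.

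Counted by comparison, Ftl1 and Mt3 rose past the threshold in LPS-LPS against saline-LPS, where 0.609% of all tested genes were called, and in the averaged prenatal comparison, where 7.82% were. Heph has no test in either, since the first named it and the second is built from that value. In LPS-LPS against saline-saline, where 6.56% of genes were called, Mt1 rose, and Ftl1 and Mt3 have no test. Since members were listed with Ftl1, Mt3 and Heph already known, these counts describe the list and do not test it.

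In LPS-saline against saline-saline 0 members passed, where 0.18% of genes did. Fth1 had an unadjusted p under 0.05, as had 2497 of the 18875 genes. DESeq2 called 0 members there, and 434 (2.30%) of all genes. For saline-LPS against saline-saline, LPS-LPS against LPS-saline, the averaged pubertal comparison and the interaction, 0 members passed, where 0% of genes did in each. Over all genes, 535, 756, 947 and 402 had an unadjusted p under 0.05 in these 4, and DESeq2 called 0, 9, 7 and 2. Among the members not named from the averaged pubertal comparison, DESeq2 called Mt1 there.

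**Figure D3:**
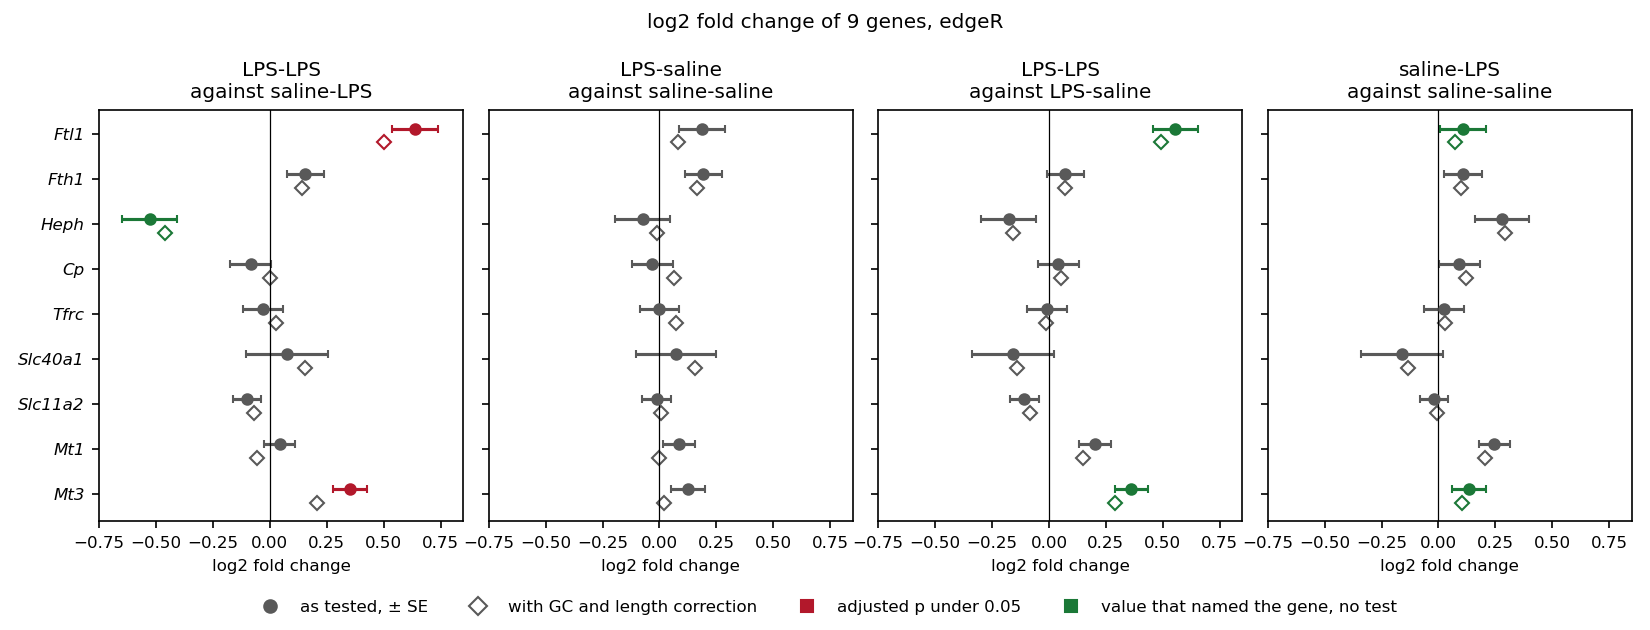
Log2 fold change (x axis) of the 9 tested genes (y axis) in the 4 comparisons that change 1 injection. Filled circles give the edgeR value ± SE and open diamonds the value with a correction for GC content and exonic length. Red marks an adjusted p under 0.05. Green marks values that carry no test: those that named a gene, and those of Ftl1 and Mt3 that enter the averaged pubertal comparison for which both were named. Ftl1 stays highest in LPS-LPS against saline-LPS in both fits, at 0.64 and 0.50, while Mt3 has 0.35 and 0.21.

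Exonic length, the length of all annotated exons of a gene together, moved with the groups and with several members. For each library, the deviation of every gene above 1 CPM from its mean over libraries was correlated with exonic length across genes. This Spearman correlation, a description across genes that are not independent replicates, was -0.368 to -0.184 in LPS-LPS, -0.252 to -0.0457 in LPS-saline, -0.0496 to 0.255 in saline-LPS and 0.152 to 0.326 in saline-saline. Genes of small exonic length stood relatively higher in libraries from LPS-injected dams, and the prenatal groups overlapped only narrowly. Exonic length was 1340 bases for Ftl1, 1246 for Mt1, 1066 for Mt3, 3469 for Fth1 and 7662 for Heph. It can exceed the main transcript, which has 929 bases in Fth1.

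Across the 16 libraries Ftl1 correlated with this length trend at r = -0.85 (rho = -0.81, permutation p = 5e-05 and 0.00034, adjusted p = 0.00015 and 0.00102 over 9 members). Fth1 had r = -0.87 (rho = -0.84, permutation p = 1e-05, the smallest that 100000 resamples can give, and 9e-05, adjusted p = 9e-05 and 0.00063). Mt3 had r = -0.85 (rho = -0.82, permutation p = 3e-05 and 0.00014, adjusted p = 0.000135 and 0.00063). Mt1 had r = -0.69 (rho = -0.70, permutation p = 0.00419 and 0.00348, adjusted p = 0.00943 and 0.00783). Without the 2 libraries farthest from the median trend, saline-saline replicates 2 and 4, r was -0.86, -0.83, -0.82 and -0.56 for Ftl1, Fth1, Mt3 and Mt1. With each group's mean removed, r was -0.71, -0.87, -0.80 and -0.86 for the same genes, with no p computed. The permutations ran over all 16 libraries without regard to group. Their p-values therefore also hold the differences between groups, some of which named Ftl1 and Mt3.

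For Slc11a2 r was 0.55 (rho = 0.53, permutation p = 0.0266 and 0.0359, adjusted p = 0.0479 and 0.0647), and 0.64 without those libraries. Heph had r = 0.42 (rho = 0.48, permutation p = 0.102 and 0.0592, adjusted p = 0.153 and 0.0888), which was 0.49 without those libraries and -0.18 with group means removed. Cp, Tfrc and Slc40a1 lay between -0.16 and 0.09.

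When the fit was corrected for GC content and exonic length, Ftl1 remained past the threshold in LPS-LPS against saline-LPS (log2 fold change 0.50, adjusted p = 0.0399, edgeR) and in the averaged prenatal comparison (0.29, adjusted p = 0.0310, edgeR). Mt3 then had 0.21 (adjusted p = 0.269, edgeR) and 0.12 (adjusted p = 0.216, edgeR) in those comparisons, and 0.31 in LPS-LPS against saline-saline. Heph had -0.46 and -0.24 in the first pair of comparisons. Leaving out any single library kept Ftl1 past the threshold in LPS-LPS against saline-LPS, at 0.55 to 0.72.

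**Figure D4:**
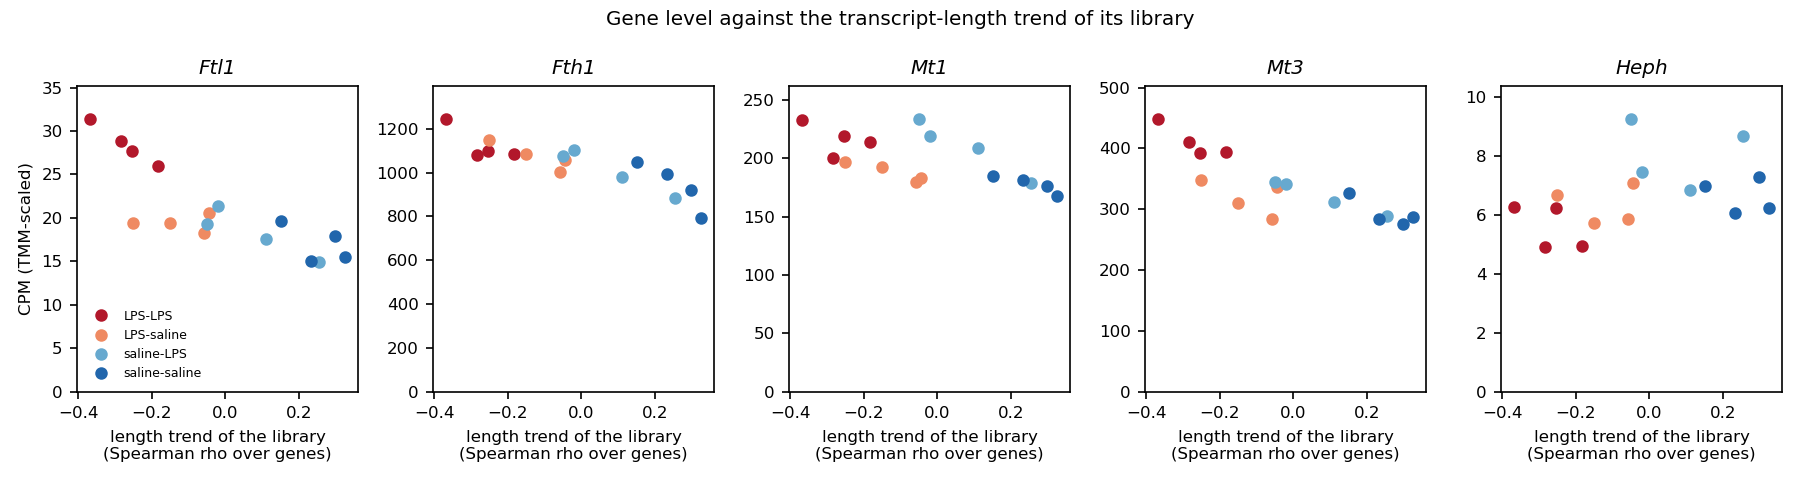
CPM of 5 genes (y axes, linear from 0) against the length trend of the library (x axis: Spearman correlation over genes between a library's deviations and exonic length), 1 point per library, coloured by group. Over the 16 libraries Ftl1, Fth1, Mt1 and Mt3 fall along the trend, at r = -0.85, -0.87, -0.69 and -0.85 (log2 CPM). The LPS-LPS libraries of Ftl1 lie between 25.9 and 31.4 CPM, and Heph shows no common line.

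In bulk tissue, fewer cells of a type and less RNA per cell cannot be told apart. Of 10 marker lists, each gene had counts. Summed oligodendrocyte markers were 6252 to 7126 CPM in LPS-LPS, 5471 to 7488 in LPS-saline, 6232 to 8414 in saline-LPS and 6639 to 7956 in saline-saline. Astrocyte markers were 5385 to 5799 CPM in LPS-LPS, 5203 to 5848 in LPS-saline, 5622 to 6743 in saline-LPS and 5337 to 6364 in saline-saline. Microglia markers were 228 to 269 CPM in LPS-LPS, 216 to 267 in LPS-saline, 182 to 269 in saline-LPS and 184 to 266 in saline-saline. These 3 cell types overlapped between all groups. Brain endothelial markers were 211 to 279 CPM in LPS-LPS, 232 to 331 in LPS-saline, 204 to 395 in saline-LPS and 262 to 374 in saline-saline. Meningeal fibroblast markers were 256 to 302 CPM in LPS-LPS, 239 to 294 in LPS-saline, 214 to 293 in saline-LPS and 215 to 262 in saline-saline.

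Red blood cell markers, which track blood left in the tissue, were 26.5 to 72.5 CPM in LPS-LPS, 16.6 to 109.9 in LPS-saline, 19.9 to 222 in saline-LPS and 30.4 to 117 in saline-saline. The groups overlapped on each of these 6 lists, and also on those of neurons, choroid plexus and cerebellar granule cells. Pituitary markers did not overlap between LPS-LPS (5.27 to 809 CPM) and saline-saline (3.10 to 4.76 CPM). The 809 CPM came from LPS-LPS replicate 1 alone. Replicates 2, 3 and 4 had 5.27, 5.50 and 5.69 CPM, little above saline-saline.

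Of the 90 relations between 10 marker lists (mean log2 CPM of the list) and 9 members over the 16 libraries, 8 had an adjusted permutation p under 0.05 by both r and rho, and all 8 were with meningeal fibroblast or brain endothelial markers. The meningeal fibroblast list, whose summed means were 284 CPM in LPS-LPS, 268 in LPS-saline, 259 in saline-LPS and 233 in saline-saline, went with Ftl1 at r = 0.79 (rho = 0.86, permutation p = 0.00046 and 4e-05, adjusted p = 0.0156 and 0.00270). For Fth1 it gave r = 0.85 (rho = 0.86, permutation p = 1e-05, the smallest that the resamples can give, and 6e-05, adjusted p = 0.00090 and 0.00270). Mt3 had r = 0.75 (rho = 0.77, permutation p = 0.00095 and 0.00074, adjusted p = 0.0182 and 0.0167), and Mt1 had r = 0.69 (rho = 0.72, permutation p = 0.00369 and 0.00266, adjusted p = 0.0393 and 0.0343). Without the 2 libraries farthest from the median of the list, saline-LPS replicate 1 and saline-saline replicate 3, r was 0.70, 0.88, 0.71 and 0.65 for Ftl1, Fth1, Mt3 and Mt1. With group means removed, r was 0.83, 0.74, 0.68 and 0.70 for the same genes, with no p computed. For all marker lists the permutations again ran across groups, so those p-values also hold the differences between groups. The list itself followed the length trend at r = -0.85.

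Brain endothelial markers went with Slc40a1 at r = 0.75 (rho = 0.71, permutation p = 0.00101 and 0.00267, adjusted p = 0.0182 and 0.0343) and with Slc11a2 at r = 0.69 (rho = 0.69, permutation p = 0.00295 and 0.00404, adjusted p = 0.0379 and 0.0455). They ran against Tfrc at r = -0.74 (rho = -0.79, permutation p = 0.00052 and 0.00054, adjusted p = 0.0156 and 0.0162) and against Mt1 at r = -0.73 (rho = -0.74, permutation p = 0.00155 and 0.00179, adjusted p = 0.0233 and 0.0322). Without saline-LPS replicates 1 and 3, the farthest from the median, r was 0.66, 0.59, -0.60 and -0.66 for Slc40a1, Slc11a2, Tfrc and Mt1. The part of these cells in the group differences of the members was not tested.

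The pathway around the members was read from 75 genes in 7 lists, of which 72 were tested. In the averaged prenatal comparison 3 were higher and 4 lower, against 7.82% of all tested genes called, and the median log2 fold change was -0.03, against -0.01 over all genes. Blvrb, a biliverdin reductase of heme breakdown, rose by 0.31 ± 0.07 (adjusted p = 0.00676, edgeR), Atox1, a copper chaperone, by 0.26 ± 0.06 (adjusted p = 0.00933) and Bmp6, the ligand that drives hepcidin in liver, by 0.25 ± 0.06 (adjusted p = 0.0183). Slc39a12, a zinc importer, fell by 0.29 ± 0.07 (adjusted p = 0.0142), Cpox, an enzyme of heme synthesis, by 0.21 ± 0.05 (adjusted p = 0.0235), Mtf1, the zinc-sensing factor that drives metallothionein genes, by 0.20 ± 0.06 (adjusted p = 0.0315) and Flvcr1, a heme exporter, by 0.20 ± 0.06 (adjusted p = 0.0476). Corrected for GC content and length, the fit called 3, against 3.25% of all genes, and among them Slc39a12 was shared (-0.31). The others were Sod1, the copper and zinc superoxide dismutase, at 0.15, and Slc7a11, the cystine importer, at 0.21. With the replicate block 15 were called, in a fit that called 13.2% of all genes.

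By list, 1 of 10 genes of heme handling rose and 1 fell, 1 of 10 of iron sensing and the hepcidin axis rose, 1 of 11 of mitochondrial iron, iron-sulfur and heme synthesis fell, and 1 of 18 of zinc and copper handling rose while 2 fell. Of iron uptake and reduction (12 genes), ferritin loading and turnover (4) and lipid peroxide defence (7), 0 passed, with 2, 1 and 2 at an unadjusted p under 0.05. DESeq2 called Gpx4 in the last and 0 in the others. Over all 18875 genes, 4379 had an unadjusted p under 0.05 in this comparison, and DESeq2 called 11.6%. Of the exonic bases of Flvcr1, 15.63% lie under other genes. Bmp6 had 26.01 ± 2.91 CPM in LPS-LPS, 21.5 ± 2.23 in LPS-saline, 21.8 ± 1.48 in saline-LPS and 18.3 ± 0.538 in saline-saline. Atox1 had 42.2 ± 1.98 CPM in LPS-LPS, 35.8 ± 2.84 in LPS-saline, 34.1 ± 3.95 in saline-LPS and 30.8 ± 2.45 in saline-saline (SD, n = 4 each). The means of both were highest in LPS-LPS and lowest in saline-saline.

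In LPS-LPS against saline-LPS 0 of the 72 passed. Of them 10 had an unadjusted p under 0.05, as had 2637 of the 18875 genes, and DESeq2 called 3, against 2.20% of all genes. The smallest p belonged to Slc39a12 (log2 fold change -0.41 ± 0.10), Mtf1 (-0.30 ± 0.08) and Atox1 (0.31 ± 0.08), with adjusted p of 0.0606, 0.0863 and 0.0912 by edgeR. In LPS-saline against saline-saline 0 passed. There 8 had an unadjusted p under 0.05, as had 2497 of the 18875 genes, and DESeq2 called 1, against 2.30% of all genes. Blvrb (0.39 ± 0.09), Gpx4 (0.24 ± 0.08) and Cpox (-0.23 ± 0.08) came first, with adjusted p of 0.0658, 0.163 and 0.172 by edgeR. In the averaged pubertal comparison 0 passed, with 7 of them at an unadjusted p under 0.05, against 947 of the 18875 genes. DESeq2 also called 0 of them, and 7 of all genes. Bmp6 (0.26 ± 0.06), Atox1 (0.19 ± 0.06) and Ltf (-1.04 ± 0.32), the gene of lactoferrin at 0.538 CPM on average, came first with adjusted p of 0.667, 0.908 and 0.908 by edgeR. Trf, the transferrin gene, had a mean of 0.877 CPM, but 63.49% of its exonic bases lie under other genes, mainly Gm20425, so this is not the level of its message.

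The genes whose levels followed each member most closely over the 16 libraries are given as a description, by Pearson's r of log2 CPM. For Ftl1 they were Tmem258 (0.97), Ssr4 (0.95) and Mt3 (0.94), and for Mt3 they were Mrpl12 (0.96), Rpl41 (0.94) and Ftl1. Fth1 was followed by Rps4x and Rpl17 (both 0.96). Mt1 was followed by Lepr, the leptin receptor (0.91), Gstm5 (0.89) and Rnd2 (0.87). Heph had Mcc, Timp4 and Rimkla (0.86, 0.84 and 0.83), Tfrc had Rlim, Zc3h6 and Gpm6a (0.91, 0.89 and 0.89), and Slc11a2 had Irgq, Sort1 and Abca3 (0.93, 0.88 and 0.87). Slc40a1 was closest to Mycn (0.91), the endothelial tight-junction gene Cldn5 (0.89) and Igfbp7 (0.88). Cp had the least similar companions, Aox1, Rsph10b and Fam161a (0.79, 0.77 and 0.75). Libraries share the length trend described above, which enters each of these values.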

How the data were processed

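Whole-brain RNA from 16 mice was sequenced, 1 library per mouse. The deposited values are raw read counts for each Ensembl gene. Per the submitters' processing notes, the authors used STAR 2.5.2b, HTSeq 0.11.2 and the GRCm38 build. For the strand setting and the annotation release, the sources used here give nothing. Symbols, positions and transcripts came from GENCODE release M21, in which 49412 of 49671 identifiers were matched. Members and gene lists were chosen with earlier results of these data known.

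Genes that passed filterByExpr (18875) were tested with edgeR 4.0.16 in R 4.3.3, in 1 quasi-likelihood fit of the 4 groups with TMM scaling. Adjusted p-values are two-sided Benjamini-Hochberg values over those genes, with a threshold of 0.05. CPM are TMM-scaled counts. The biological coefficient of variation was 10.4%. All members are named. Of the pathway lists, up to 6 called genes per direction are named by smallest p, or, where none passed, the 3 smallest p. Reads had no molecular identifiers, so counting limits cover counting error only.

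The labels number the replicates. Between libraries with the same number, deviations from the group mean (15230 genes) correlated at 0.284 to 0.364 in LPS-LPS against saline-LPS, 0.117 to 0.570 in LPS-saline against saline-saline and 0.142 to 0.365 in LPS-LPS against LPS-saline. Every same-numbered pair was over 0.1 in these 3 comparisons, although libraries of different number reached 0.394 in the first. The lowest same-numbered value was 0.00127 in saline-LPS against saline-saline and -0.00728 in LPS-LPS against saline-saline. Of the 16 libraries, 10 correlated best with one of their own number. The labels do not say what the numbers mean, so whether they pair the libraries is not settled. The tests printed here do not use the replicate numbers, and the replicate block is an alternative. Alternatives were DESeq2 1.42.0, RLE scaling, no count filter, a replicate block, a GC and length correction, a Gabra6 covariate or split, fewer libraries, and an adjusted p under 0.1. The tests were checked on simulated counts. For each tested member, the 3 genes with the highest Pearson correlation of log2 CPM over the libraries were taken, and 1 of those for Fth1 is not reported here.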

Additional observations from a re-analysis of the deposited data

Results flagged for a closer look

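Of the 40 sets of 4 libraries (10 genes in 4 groups), 1 had a library far from the others of its group. Fth1 stood at 1245 CPM in LPS-LPS replicate 3, against 1078, 1083 and 1098 CPM in the other libraries of that group. The gap made up 0.883 of the group's range, above Dixon's critical value, which chance exceeds in about 1 group in 20. The same library held Xist and no Ddx3y counts, and it had the lowest length trend of all, at -0.368. The part of either in the Fth1 value was not tested.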

How the results depend on the processing

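Direction and side of the threshold were kept in 653 member values, while 26 lost and 27 gained a call and 65, none of them called, changed sign. The counts of calls below include the values that named Ftl1, Mt3 and Heph. They describe how the settings act and do not test those values, whether a call is kept, lost or gained. In LPS-LPS against saline-LPS, where 3 members were called, 1 was called with the GC and length correction, 1 with the replicate block and that correction, 1 with only the libraries compared, and 1 to 3 with 1 library left out. For LPS-LPS against LPS-saline, with 0 called, DESeq2 called 2, the fit without a count filter 2, the Gabra6 covariate 1, only the libraries compared 1, and leaving out 1 library 0 to 1. LPS-LPS against saline-saline had 3 called. Of the 3 in the averaged prenatal comparison, 1 remained with the GC and length correction and 1 with the replicate block and that correction. The averaged pubertal comparison, with 0, gave 3 by DESeq2, which called 7 of the 18875 genes there. With 1 library left out it gave 0 to 3, the 3 being Ftl1, Mt1 and Mt3 without saline-LPS replicate 1. Ftl1 and Mt3 were named for this comparison, so their calls in it are no test. The libraries with Gabra6 under 1 CPM include 1 of LPS-LPS, and those at 1 CPM or more include 1 of saline-saline. In these strata a lone library is assumed to vary like the other groups. Calls lost or gained and signs changed there therefore say little, and those calls are not listed. Other causes were not tested. The replicate block alone gave 3 called in LPS-LPS against saline-LPS and changed no call there, in LPS-saline against saline-saline or in LPS-LPS against LPS-saline. In these 3 comparisons every same-numbered pair correlated at over 0.1, but whether the numbers pair the libraries is not settled. It gave 4 in LPS-LPS against saline-saline and 4 in the averaged prenatal comparison, the added one being Fth1 in both.

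With the GC and length correction, without and with the replicate block, log2 fold changes that took the other sign were 0.0656 and 0.0651 for Cp, 0.0717 and 0.0708 for Tfrc, 0.00722 and 0.00546 for Slc11a2, -0.00313 and -0.00292 for Mt1 in LPS-saline against saline-saline. They were 0.0279 and 0.0286 for Tfrc, -0.0569 and -0.0550 for Mt1 in LPS-LPS against saline-LPS. Such values were 0.0568 and 0.0566 for Tfrc, 0.0167 and 0.0477 for Slc40a1 in LPS-LPS against saline-saline. Such values were 0.0321 and 0.0279 for Cp, 0.0498 and 0.0497 for Tfrc, -0.0300 and -0.0289 for Mt1 in the averaged prenatal comparison. Under 1 CPM of Gabra6 the changed values were 0.0105 for Cp and 0.0284 for Slc11a2 in LPS-saline against saline-saline, 0.107 for Cp, 0.0523 for Tfrc and -0.244 for Slc40a1 in LPS-LPS against saline-LPS, -0.0433 for Ftl1, -0.0200 for Fth1, -0.146 for Tfrc, 0.0589 for Slc40a1 and 0.0625 for Slc11a2 in saline-LPS against saline-saline, 0.00164 for Tfrc in LPS-LPS against LPS-saline, 0.0588 for Cp in the averaged prenatal comparison and -0.00570 for Fth1, -0.0350 for Heph and -0.0721 for Tfrc in the averaged pubertal comparison. At 1 CPM or more the changed values were 0.120 for Tfrc and -0.206 for Slc40a1 in LPS-saline against saline-saline, -0.0628 for Mt1 in LPS-LPS against saline-LPS, 0.124 for Slc40a1 in LPS-LPS against LPS-saline and -0.0967 for Cp and 0.0589 for Tfrc in LPS-LPS against saline-saline. With Gabra6 as a covariate the changed values were 0.00895 for Slc11a2 in LPS-saline against saline-saline, -0.0190 for Tfrc and 0.00179 for Slc11a2 in saline-LPS against saline-saline and -0.0187 for Tfrc in the averaged pubertal comparison. With no count filter the changed value was 0.00227 for Tfrc in LPS-saline against saline-saline. With only the libraries compared the changed value was -0.00145 for Cp in LPS-LPS against saline-saline. Leaving out 1 library changed the sign of 5 members in some comparisons. Cp then ranged over -0.102 to 0.0325 in LPS-saline against saline-saline, -0.00744 to 0.104 in LPS-LPS against LPS-saline and -0.0630 to 0.0726 in LPS-LPS against saline-saline. Tfrc then ranged over -0.0317 to 0.0323 in LPS-saline against saline-saline, -0.133 to 0.0304 in LPS-LPS against saline-LPS, -0.0379 to 0.125 in saline-LPS against saline-saline, -0.0687 to 0.0332 in LPS-LPS against LPS-saline, -0.0684 to 0.0336 in LPS-LPS against saline-saline, -0.0665 to 0.0154 in the averaged prenatal comparison and -0.0229 to 0.0588 in the averaged pubertal comparison. Slc40a1 then ranged over -0.0908 to 0.174 in LPS-saline against saline-saline, -0.0310 to 0.237 in LPS-LPS against saline-LPS and -0.0120 to 0.155 in the averaged prenatal comparison. Slc11a2 then ranged over -0.0425 to 0.0203 in LPS-saline against saline-saline and -0.0643 to 0.0347 in saline-LPS against saline-saline. Mt1 then ranged over -0.0271 to 0.0985 in LPS-LPS against saline-LPS. Depth limits Heph and Slc40a1, with under 450 counts per library, and Mt2, which was not tested.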
